A study of Mus musculus with 12 samples.

Results

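The genes described here are the clustered histone genes, whose mouse symbols begin with Hist1h, Hist2h, Hist3h or Hist4h. Of 50600 annotated genes, 68 carried such a symbol. Leaving out 3 annotated pseudogenes and 15 genes with fewer than 10 counts over all libraries, 8 of them with no count at all, left 50 genes: 6 for histone H1, 10 for H2A, 11 for H2B, 10 for H3 and 13 for H4. The Hist1 cluster on chromosome 13 held 43 of them, the Hist2 cluster on chromosome 3 held 4, the Hist3 cluster on chromosome 11 held 2, and Hist4h4 lies alone on chromosome 6. Their levels were measured in 12 liver libraries of polyadenylated RNA from Rosa26-LSL-dCas9-p300 mice, in 3 groups of 4.

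All groups carried the dCas9-p300 allele, a nuclease-dead Cas9 fused to the histone acetyltransferase p300 and placed behind a loxP-flanked stop cassette that Cre recombinase removes. None of the sources used here gives the origin of Cre, so whether the fusion was made in each group is not known from them. The PBS group received buffer and no virus. The control gRNA group received adeno-associated virus (AAV, named AAV.Cbh.gRNA) with a non-targeting guide RNA, and the Pdx1 gRNA group received AAV with a guide to Pdx1, both at 1e+12 viral genomes per mouse. Mice aged about 8 weeks were injected through the tail vein, and their livers were harvested after a further 2 weeks.

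Histone proteins package DNA: H2A, H2B, H3 and H4 form the core of the nucleosome, and H1 binds the linker DNA where it enters and leaves. Most clustered histone genes are replication-dependent: they are transcribed mainly in S phase, when new DNA has to be packaged, and adult hepatocytes rarely enter it. Their messenger RNAs usually end not in a poly(A) tail but just past a conserved stem-loop, which the stem-loop binding protein recognises. Some of these genes can also yield polyadenylated transcripts from sites further downstream, for example in differentiated cells. A library of polyadenylated RNA therefore sees only part of the output of these genes, and the levels below are levels of polyadenylated, or otherwise captured, histone RNA.

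The stem-loop was looked for in the RNA-sense strand of the transcripts as its known letters (GG, any 2 bases, CTTTT, any base, AG, any 2 bases and CC), keeping only matches whose arms pair. It occurred in 49 of 21901 protein-coding genes (0.2237%), and 42 of these 49 were clustered histone genes. Of the 50 genes described here, 36 held it inside the counted exons. There were 6 forms, of which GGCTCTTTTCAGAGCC was in 18 genes, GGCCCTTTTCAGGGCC in 7 and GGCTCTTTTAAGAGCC in 6. The examples below show genes with much or little counted sequence after the stem-loop, which is in capitals, with 5 bases on either side (GRCm38; coordinates of the stem-loop).

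Hist1h1c, chr13:23739512-23739527, plus strand: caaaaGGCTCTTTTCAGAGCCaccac
Hist1h2be, chr13:23585531-23585546, minus strand: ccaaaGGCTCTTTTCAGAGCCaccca
Hist3h2a, chr11:58955172-58955187, plus strand: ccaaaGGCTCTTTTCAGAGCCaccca
Hist2h4, chr3:96262939-96262954, minus strand: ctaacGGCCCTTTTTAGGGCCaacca
Hist1h4i, chr13:22040966-22040981, minus strand: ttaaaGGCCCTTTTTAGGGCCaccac
Hist1h4h, chr13:23531458-23531473, plus strand: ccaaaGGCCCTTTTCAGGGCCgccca
Hist1h2ae, chr13:23570668-23570683, minus strand: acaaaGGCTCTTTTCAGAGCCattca

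The same 16 bases thus stood in Hist1h1c, Hist1h2be, Hist3h2a and Hist1h2ae, but the annotated exons went on for 840 bases after them in Hist1h1c, 1789 in Hist1h2be and 1643 in Hist3h2a, and for 6 in Hist1h2ae. For Hist2h4 the stretch was 1257 bases, for Hist1h4i 330 and for Hist1h4h 49. In all, 24 genes had fewer than 100 counted bases after the stem-loop, and 12 had 100 or more. No match was found in the counted exons of the other 14 genes, among them Hist1h2bc, Hist2h2be, Hist1h4a and Hist1h4k. This does not show that they lack a stem-loop. The counted exons of some were short, such as 312 bases in Hist1h4k and 393 in Hist1h2ai. A stem-loop past the annotated end, or one with other letters, would have been missed.

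Promoters were read as the 250 bases before the RefSeq start (GRCm38.p6), a table that held 45 of the 50 genes under their present symbols. On either strand, CCAAT, the binding sequence of the factor NF-Y, was in 35 of these 45 promoters (77.78%, against 34.46% of 27025 promoters). TATAAA, a core promoter box, was in 25 (55.56% against 12.97%). In some of these, such as Hist1h2bk, Hist1h2bn, Hist1h2bp and Hist1h2bf, it was found only on the opposite strand. The octamer ATTTGCAT, bound by Oct-1, was in 9 (20% against 1.61%), all of them H2A (6 of 10) or H2B genes (3 of 9). The promoters of neighbours such as Hist1h2ae and Hist1h2bg overlap, so the same match can count for both genes. AAACACA, known as the H1 box, was in 5 of 6 H1 promoters, against 6.224% of all promoters. The promoters of Hist1h1c and Hist1h1e are shown because these H1 genes rose in both virus groups. That of Hist1h4a is shown because this gene had no count after PBS. Capitals mark the motifs just named.

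Hist1h1c promoter, chr13:23738557-23738806, plus strand: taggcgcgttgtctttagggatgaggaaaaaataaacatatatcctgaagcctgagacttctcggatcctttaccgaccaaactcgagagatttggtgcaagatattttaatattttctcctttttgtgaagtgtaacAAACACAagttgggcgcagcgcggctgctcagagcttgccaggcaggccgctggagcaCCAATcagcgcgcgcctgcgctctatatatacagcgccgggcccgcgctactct
Hist1h1e promoter, chr13:23622559-23622808, minus strand: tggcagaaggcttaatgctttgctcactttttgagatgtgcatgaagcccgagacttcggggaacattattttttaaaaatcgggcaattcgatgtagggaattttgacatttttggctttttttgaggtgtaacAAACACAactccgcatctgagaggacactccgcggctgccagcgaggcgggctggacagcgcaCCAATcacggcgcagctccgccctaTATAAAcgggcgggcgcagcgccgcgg
Hist1h4a promoter, chr13:23761250-23761499, minus strand: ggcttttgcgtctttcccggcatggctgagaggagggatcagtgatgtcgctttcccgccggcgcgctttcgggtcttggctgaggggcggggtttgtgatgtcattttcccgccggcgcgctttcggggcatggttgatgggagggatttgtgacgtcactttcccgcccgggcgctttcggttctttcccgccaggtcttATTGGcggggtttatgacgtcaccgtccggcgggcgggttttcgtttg

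Both H1 promoters carried the H1 box upstream of CCAAT. The Hist1h4a promoter held CCAAT on the opposite strand, written ATTGG here. A match to such letters describes the sequence and shows no binding.

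Libraries held 11824767 to 22008046 assigned counts, and mitochondrial genes took 3.30 to 8.07% of them. PBS libraries 2 and 3 had little Xist (2.61 and 3.64 CPM, counts scaled to library size) and high Ddx3y, a Y-linked gene (80.8 and 70.0 CPM), and the other 10 libraries had 692 CPM of Xist or more, so the PBS group mixed male and female patterns and the virus groups did not. Pdx1 itself had 26 to 256 counts in the Pdx1 gRNA libraries and at most 2 elsewhere. The defining markers of hepatocytes were abundant in every library (summed CPM of 8 genes, 50225 or more). No source says that every library is a separate animal, so p-values measure the spread between libraries.

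Histone RNA was scarce and very unevenly spread. The 50 genes had 67050 counts over the 12 libraries. Hist1h2bc and Hist1h1c took 90.7% of these, leaving 6256 counts for the other 48 genes. Per kilobase of exon, the mean over 12 libraries was 218 CPM for Hist1h2bc, 77.8 for Hist1h1c, 11.9 for Hist1h4h, 4.98 for Hist1h4i and 4.26 for Hist1h4k. The next 5 were Hist1h2ae (1.46), Hist1h4m (1.35), Hist2h2be (1.16), Hist1h2bg (1.14) and Hist2h3c2 (1.06), and all others lay lower. Only 18 of the 50 genes passed the filter on low counts and were tested. The 32 others had 10 to 114 counts in all 12 libraries together.

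The balance between the 2 abundant genes differed between groups. Hist1h1c made up 10.8 to 21.6% of histone counts after PBS, 34.6 to 48.3% with the control gRNA and 35.98 to 59.6% with the Pdx1 gRNA. Hist1h2bc made up 71.1 to 77.9%, 45.0 to 55.5% and 33.0 to 52.1%, in the same order of groups.

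Both virus groups had more histone RNA than the PBS group. Summed over the 50 genes, PBS libraries 1 to 4 had 151, 248, 198 and 152 CPM on TMM-scaled library sizes (the scaling used for all CPM of histone genes below). Control gRNA libraries 1 to 4 had 418, 341, 312 and 347 CPM. Pdx1 gRNA libraries 1 to 4 had 303, 292, 417 and 559 CPM. Every virus library lay above every PBS library, and the virus groups overlapped each other. Without Hist1h1c and Hist1h2bc, the other 48 genes summed to 16.3 ± 3.02 CPM after PBS (SD, n = 4), 33.5 ± 4.33 after control gRNA and 38.2 ± 9.40 after Pdx1 gRNA, again with no overlap between PBS and either virus group. In bulk tissue, more cells that make histone RNA and more histone RNA per cell cannot be told apart.

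By family, the H1 sum was 32.9 ± 17.2 CPM after PBS, 145 ± 38.9 after control gRNA and 191 ± 97.0 after Pdx1 gRNA (SD, n = 4). The H2A sum was 1.70 ± 0.486, 4.74 ± 0.246 and 4.67 ± 1.52 CPM. The H3 sum was 1.47 ± 0.384, 3.32 ± 0.541 and 4.54 ± 1.71 CPM. The H4 sum was 7.86 ± 1.77, 17.1 ± 4.13 and 18.0 ± 4.08 CPM. In each of these 4 families, all 8 virus libraries exceeded all 4 PBS libraries. The H2B sum did not separate: it was 143 ± 29.5, 184 ± 16.7 and 174 ± 45.1 CPM, and nearly all of it was Hist1h2bc.

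**Figure D1:**
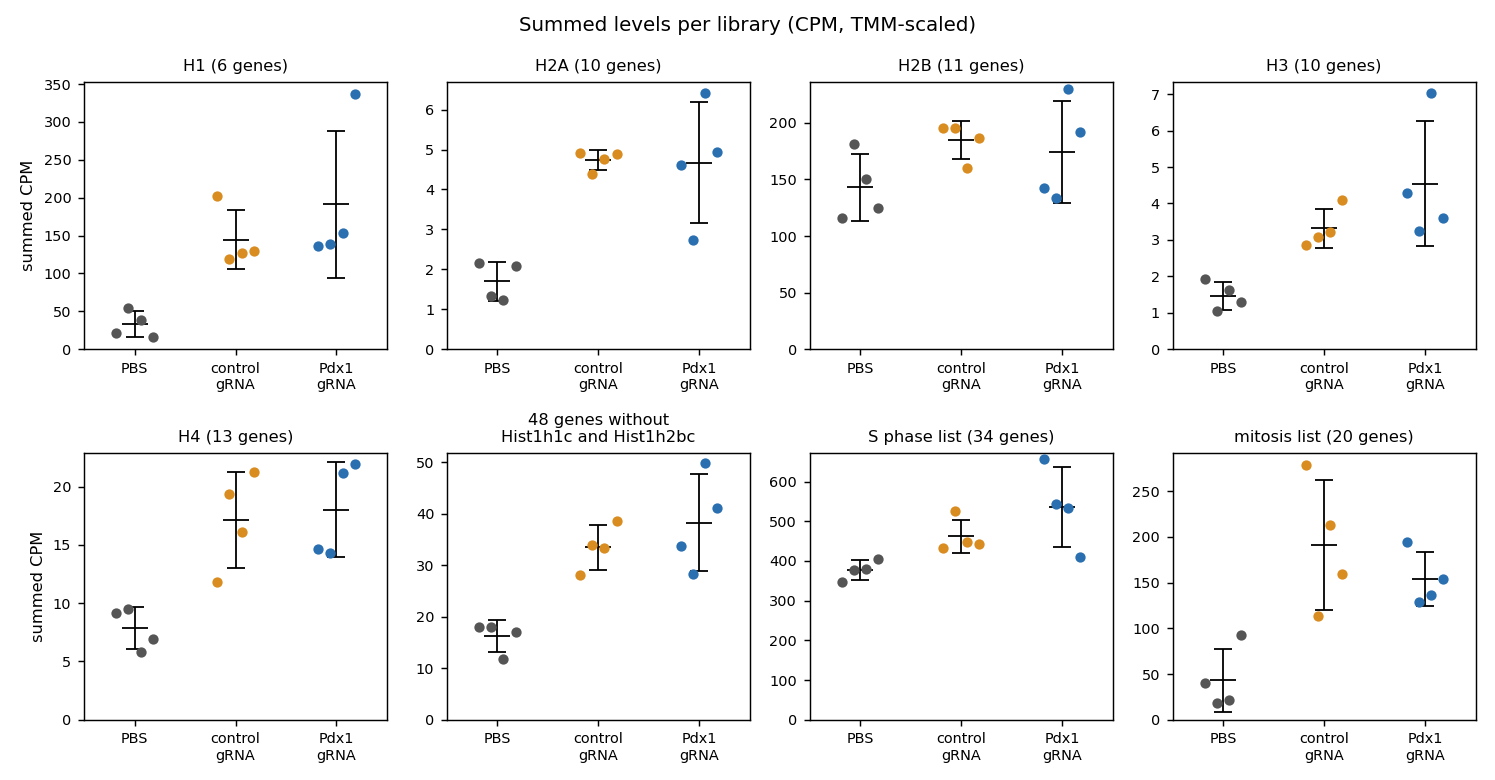
Summed CPM (y axes, TMM-scaled) per library of the 5 histone families, of the 48 histone genes other than Hist1h1c and Hist1h2bc, and of the S phase and mitosis lists. Points are libraries, 4 per group; bars are the mean ± SD. In H1, H2A, H3, H4 and the 48 genes all virus libraries lie above all PBS libraries, while H2B overlaps.

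The comparison of control gRNA with PBS asks what the virus and a guide without a target did to these genes. After control gRNA, 10 of the 18 tested histone genes rose and none fell at an adjusted p under 0.05 (edgeR quasi-likelihood test, Benjamini-Hochberg over 15219 genes). Over all tested genes, 16.3% rose and 15.8% fell. The median log2 fold change of the 18 genes was 1.33, and it stayed 1.33 with the PBS count of Hist1h4a set at 3. The median of all genes was -0.01. The 10 genes were Hist1h1c, Hist1h1e, Hist1h2ae, Hist3h2a, Hist1h2be, Hist2h3c2, Hist1h4a, Hist1h4h, Hist1h4i and Hist1h4n, at least 1 of each family. In 9 of the 18, every control gRNA library exceeded every PBS library, against 16.5% of all tested genes.

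Entry to the test leaned towards genes that were high after virus, since a gene needed enough counts in any 4 libraries. Only 7 of the 18 (Hist1h1c, Hist1h2bc, Hist1h4h, Hist1h4i, Hist2h2be, Hist2h4 and Hist3h2a) reached that level in all 4 PBS libraries. Of these 7, 4 rose after control gRNA and 3 after Pdx1 gRNA. Among all 12502 tested genes at that level in all 4 PBS libraries, 14.7% rose and 18.7% fell after control gRNA. After Pdx1 gRNA, 11.2% of them rose and 12.3% fell. The other 11 histone genes passed with the help of virus libraries. For 7 of the 11, Hist1h4a among them, no PBS library was at that level. Low genes that stayed low could not enter. Of the 11, 6 rose in each comparison, and the counts and medians over the 18 tested genes are therefore a description only. The p-values given below for Hist1h1e, Hist1h2ae, Hist1h2be, Hist2h3c2, Hist1h4a, Hist1h4k and Hist1h4n, which are among the 11, carry the same selection. Among all tested genes of the latter kind, 24.1% rose and 2.32% fell after control gRNA, and 14.1% rose and 1.66% fell after Pdx1 gRNA. With all 50 histone genes fitted, the median log2 fold change was 1.38 after control gRNA and 1.51 after Pdx1 gRNA, and 42 and 43 of the 50 were above 0. This too is a description only. Each of the 50 needed 10 or more counts in all, and the 8 with no PBS count could only lie above 0. The share of all genes above 0 was not taken.

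The comparison of Pdx1 gRNA with PBS uses the same PBS libraries, so the 2 sets of values are not independent. Here 9 of 18 rose and none fell, against 11.7% and 10.4% of all tested genes. The median log2 fold change was 1.58, with or without the PBS count of Hist1h4a set at 3, and that of all genes was -0.06. The genes were Hist1h1c, Hist1h1e, Hist1h2ae, Hist1h2be, Hist2h3c2, Hist1h4a, Hist1h4h, Hist1h4i and Hist1h4k. Groups did not overlap, with Pdx1 gRNA higher, in 8 of 18 and lower in 0, against 12.7% and 8.74% of all tested genes.

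**Figure D2:**
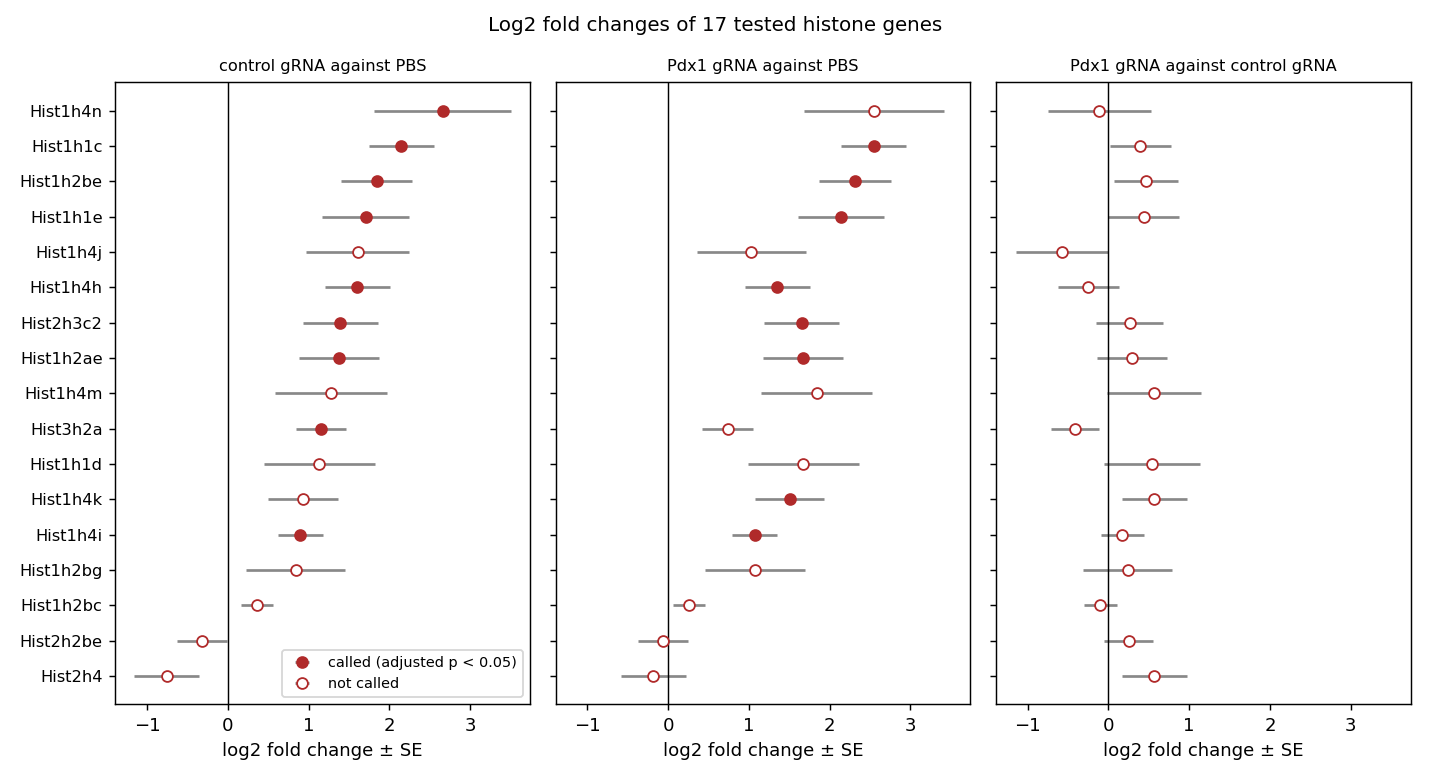
Log2 fold changes (x axis) ± SE of 17 tested histone genes in the 3 comparisons, filled where the adjusted p was under 0.05. Hist1h4a is left out because it had no count after PBS. Most genes lie right of 0 against PBS, and against control gRNA every gene is open.

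Hist1h1c (ENSMUSG00000036181.2, chr13:23738808-23740367, plus strand) encodes linker histone H1.2, a major somatic H1. PBS libraries 1 to 4 had 21.4, 53.5, 38.1 and 16.4 CPM. Control gRNA libraries had 202, 118, 125 and 128 CPM, and Pdx1 gRNA libraries had 135, 137, 150 and 333 CPM. The lowest virus library was thus well above the highest PBS library, and control gRNA library 1 and Pdx1 gRNA library 4 stood above the rest of their groups. The log2 fold change was 2.15 ± 0.40 after control gRNA (adjusted p = 0.00218, edgeR) and 2.55 ± 0.40 after Pdx1 gRNA (adjusted p = 0.00154), and both calls held in all 21 alternative settings. This gene alone accounted for most of the higher histone total.

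Hist1h1e, encoding H1.4, was far less abundant. Its levels were 0.120, 0.380, 0.307 and 0.0715 CPM after PBS, 0.410, 0.365, 0.869 and 1.11 after control gRNA, and 0.932, 0.884, 0.982 and 0.914 after Pdx1 gRNA. The Pdx1 gRNA libraries were close together and all above PBS, while control gRNA library 2 lay just below the highest PBS library. The rise was 1.71 ± 0.53 on the log2 scale after control gRNA (adjusted p = 0.0278, edgeR) and 2.14 ± 0.53 after Pdx1 gRNA (adjusted p = 0.0138). The first call held in 13 of 19 alternative settings and the second in all 20. No PBS library reached the filter's level for this gene, so these p-values carry the selection described above.

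Hist1h1d, encoding H1.3, was not called, with log2 fold changes of 1.14 ± 0.69 and 1.67 ± 0.69. Hist1h1a had 1 count over the PBS libraries, 11 over the control gRNA libraries and 21 over the Pdx1 gRNA libraries, and Hist1h1b, which encodes H1.5, had 1, 6 and 16. Hist1h1t, the testis H1, had 2, 7 and 5. These 3 were too low to test, and their counts are raw and not scaled for depth.

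**Figure D3:**
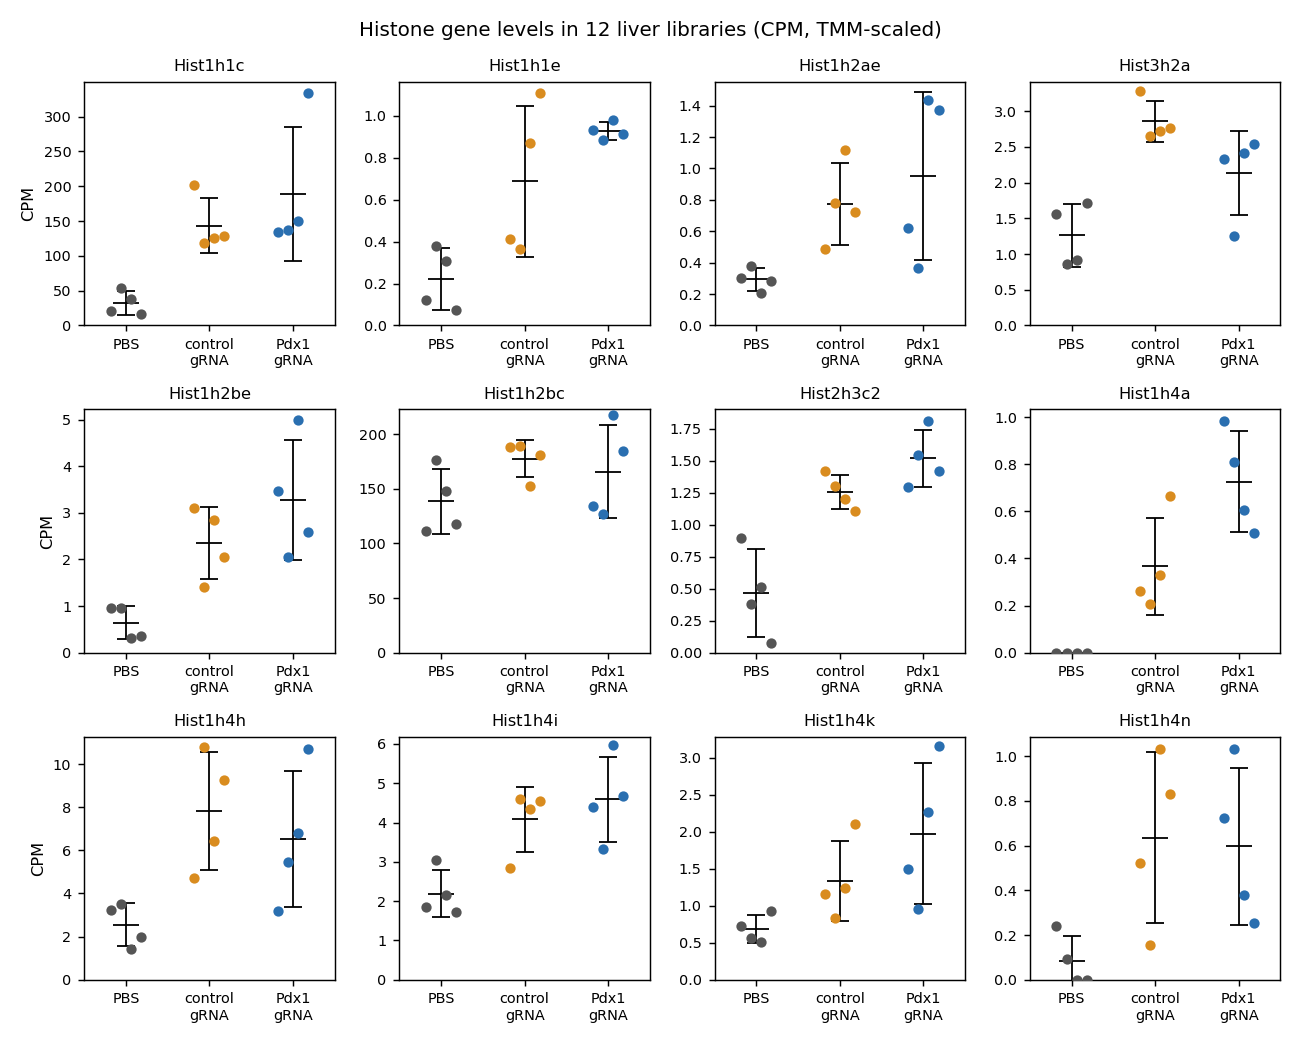
CPM (y axes, TMM-scaled, each starting at 0) per library of the 11 histone genes called in at least 1 comparison and of Hist1h2bc. Points are libraries, 4 per group; bars are the mean ± SD. Hist1h1c and Hist1h2be show both virus groups above PBS, Hist1h4a has no count after PBS, and the groups of Hist1h2bc overlap.

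In the H2A family, Hist1h2ae had 0.2997, 0.380, 0.205 and 0.286 CPM after PBS, 0.485, 0.783, 1.12 and 0.720 after control gRNA, and 0.621, 0.369, 1.44 and 1.37 after Pdx1 gRNA. All control gRNA libraries were above PBS, and Pdx1 gRNA library 2 was not. Its log2 rise was 1.38 ± 0.50 after control gRNA (adjusted p = 0.0492, edgeR), a call that held in only 5 of 20 alternative settings, and 1.67 ± 0.50 after Pdx1 gRNA (adjusted p = 0.0307), which held in 9 of 19.

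Hist3h2a lies outside the large cluster, on chromosome 11. Its levels were 1.56, 0.855, 0.922 and 1.72 CPM after PBS, 3.28, 2.66, 2.73 and 2.77 after control gRNA, and 2.33, 1.25, 2.42 and 2.54 after Pdx1 gRNA. Control gRNA libraries were all above the others. The gene rose by 1.15 ± 0.31 (log2) after control gRNA (adjusted p = 0.0143, edgeR), and the difference of Pdx1 gRNA from PBS, 0.74 ± 0.31, was not called (adjusted p = 0.112). Its call after control gRNA held in 20 of 21 alternative settings. The exons of Hist3h2a overlap those of Trim17 on the same strand over 708 bases. Fragments lying in both genes were not counted, and Trim17 had 57 counts in all.

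Hist1h2be was the clearest of the H2B genes. It had 0.959, 0.950, 0.307 and 0.358 CPM after PBS, 3.10, 1.41, 2.85 and 2.05 after control gRNA, and 3.47, 2.06, 4.99 and 2.59 after Pdx1 gRNA. No virus library overlapped PBS. The log2 fold changes were 1.84 ± 0.44 (adjusted p = 0.00817, edgeR) and 2.31 ± 0.45 (adjusted p = 0.00414), and both calls held in all 21 alternative settings. Its counted model is unusual: 2 exon blocks of 2229 and 2145 bases spread over chr13:23583742-23621124, so its level per kilobase was low (0.147, 0.538 and 0.749 CPM per kb in the 3 groups).

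Hist1h2bc, the most abundant histone gene in these livers, had 112, 176, 148 and 118 CPM after PBS, 188, 189, 153 and 181 after control gRNA, and 134, 127, 217 and 184 after Pdx1 gRNA. The groups overlapped. Its log2 fold changes, 0.36 ± 0.20 (adjusted p = 0.189, edgeR) and 0.26 ± 0.20 (adjusted p = 0.376), were not called, and the difference after control gRNA passed in 1 of 21 alternatives, library sizes alone. It has 2 counted exon blocks of 423 and 313 bases that span 8290 bases of chr13:23684199-23692488. Hist2h2be had 2.05 to 5.29 CPM after PBS and 2.14 to 4.08 in the virus libraries, with log2 fold changes of -0.32 ± 0.31 and -0.06 ± 0.31, and Hist1h2bg had 0.84 ± 0.61 and 1.08 ± 0.62. None of these was called.

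Of the H3 genes, only Hist2h3c2 was tested. It had 0.899, 0.380, 0.512 and 0.0715 CPM after PBS, 1.42, 1.30, 1.20 and 1.11 after control gRNA, and 1.29, 1.55, 1.81 and 1.42 after Pdx1 gRNA. The 8 virus libraries all lay above the 4 PBS libraries. The log2 rise was 1.39 ± 0.46 (adjusted p = 0.036, edgeR) and 1.66 ± 0.47 (adjusted p = 0.0243). These calls held in 12 and 14 of 21 alternative settings. Of its 50-base windows, 63.5% also occur in transcripts of other genes, and Hist2h3b and Hist2h3c1 of the same family, all of whose windows are shared, had no count.

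The H4 genes encode the same protein. Hist1h4h, the highest of them per kilobase, had 3.24, 3.52, 1.43 and 2.00 CPM after PBS, 4.74, 10.8, 6.41 and 9.26 after control gRNA, and 3.21, 5.45, 6.80 and 10.7 after Pdx1 gRNA. Control gRNA libraries were all above PBS, and Pdx1 gRNA library 1 lay within the PBS range. The log2 fold changes were 1.60 ± 0.40 (adjusted p = 0.0101, edgeR) and 1.35 ± 0.40 (adjusted p = 0.0305). These calls held in 19 and 12 of 21 alternative settings.

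Hist1h4a, which lies at chr13:23760692-23761230 on the minus strand, had no count in any PBS library. Control gRNA libraries had 0.261, 0.209, 0.331 and 0.665 CPM, from 31 counts in all, and Pdx1 gRNA libraries had 0.984, 0.811, 0.604 and 0.508 CPM, from 48 counts. Every virus library thus had the RNA and no PBS library did. With the PBS group set at 3 counts, the level was 5.97-fold higher after control gRNA (adjusted p = 0.0033, edgeR). After Pdx1 gRNA it was 12.4-fold higher (adjusted p = 0.00172, edgeR). With counting error in both groups allowed for, the lower 95% limits were 4.57-fold and 9.69-fold. Both calls held in all 19 settings that tested the gene, but it entered the test only through virus libraries, so these p-values carry that selection. The limits cover counting error only and not the spread between libraries.

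Hist1h4i had 1.86, 3.04, 2.15 and 1.72 CPM after PBS, 2.84, 4.59, 4.34 and 4.54 after control gRNA, and 4.40, 3.32, 5.97 and 4.67 after Pdx1 gRNA. Control gRNA library 1 was below the highest PBS library, and all Pdx1 gRNA libraries were above it. The log2 rise was 0.90 ± 0.27 (adjusted p = 0.0251, edgeR) and 1.07 ± 0.28 (adjusted p = 0.0162). These calls held in 15 and 20 of 21 alternative settings.

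Hist1h4k was called only with the Pdx1 gRNA, by 1.504 ± 0.43 (adjusted p = 0.0258, edgeR), from 0.512 to 0.930 CPM after PBS to 0.958 to 3.15 CPM. After control gRNA its difference was 0.93 ± 0.43 (adjusted p = 0.113). Hist1h4n was called only with the control gRNA, by 2.66 ± 0.85 (adjusted p = 0.03), and it differed by 2.55 ± 0.87 after Pdx1 gRNA (adjusted p = 0.0512). The call of Hist1h4k held in 14 of 21 alternative settings, and that of Hist1h4n in 11 of 19. Between the virus groups, Hist1h4k differed by 0.57 ± 0.40 and Hist1h4n by -0.11 ± 0.64, and neither difference was called. Hist1h4n had 5 counts over the PBS libraries, and 85.6% of its 50-base windows occur in transcripts of other genes.

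Hist1h4j (1.61 ± 0.64 and 1.03 ± 0.67) and Hist1h4m (1.28 ± 0.69 and 1.84 ± 0.69) were not called. Hist2h4 was the one tested gene with every control gRNA library below every PBS library. It had 0.959, 1.05, 0.922 and 1.502 CPM after PBS, 0.746, 0.313, 0.827 and 0.720 after control gRNA, and 1.24, 1.33, 0.906 and 0.457 after Pdx1 gRNA. Its differences of -0.75 ± 0.40 (adjusted p = 0.171, edgeR) and -0.18 ± 0.40 (adjusted p = 0.774) were not called. Across all tested genes, 12.3% had control gRNA libraries all below PBS.

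The 32 genes below the filter had 127 raw counts after PBS, 475 after control gRNA and 506 after Pdx1 gRNA. These sums are not scaled for depth. Assigned counts per library were 11824767 to 17870498 for PBS, 16963079 to 22008046 for control gRNA and 13531769 to 18063529 for Pdx1 gRNA. In CPM, the control gRNA libraries all exceeded the PBS libraries in 13 of the 32 and never lay all below them. Among all 6743 genes with at least 10 counts that missed the filter, 4.79% were higher and 2.85% were lower in this sense. For Pdx1 gRNA the count was 11 higher and 0 lower, against 3% and 2.4% of those genes.

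Counts per library show how sparse this is. Hist1h3b had 0 counts in all PBS libraries, 4, 4, 10 and 5 in control gRNA libraries 1 to 4, and 4, 3, 9 and 7 in Pdx1 gRNA libraries 1 to 4. Hist1h2ac had 0 in all PBS libraries, then 8, 5, 4 and 9, then 9, 7, 10 and 3. Hist1h3g had 0, 0, 0 and 1 after PBS, then 7, 4, 10 and 6, then 15, 2, 10 and 6. Of the 50 genes, 8 had no count in any PBS library, and 5 of these had a count in all 8 virus libraries. Each of the 50 needed 10 or more counts in all, so a gene at 0 after PBS had its counts in virus libraries. PBS libraries had counts in 27 to 33 of the 50 genes, control gRNA libraries in 45 to 49 and Pdx1 gRNA libraries in 42 to 47. These numbers are not scaled for depth and were not set against the share over all genes. Not all low genes followed. Hist1h4c had 18, 25 and 31 raw counts, Hist1h3e 16, 16 and 14, and Hist1h4b 7, 2 and 3 over the 3 groups. Scaled to library size, the ratios of control gRNA to PBS were 0.80, 0.58 and 0.165, in the same order of genes. Those of Pdx1 gRNA to PBS were 1.33, 0.68 and 0.33. The genes in this paragraph were chosen after their values were seen.

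The virus groups were also compared with each other, since only the guide differs between them. No histone gene was called, and neither was any other gene by edgeR (0% called). At an unadjusted p under 0.05 there were 0 of the 18 histone genes, against 6.03% of all tested genes, and DESeq2 called 14 genes, 0 of them histone genes. The median log2 difference of the 18 was 0.28. The smallest p in each family was that of Hist1h1c (0.40 ± 0.38), Hist3h2a (-0.42 ± 0.30), Hist1h2be (0.47 ± 0.39), Hist2h3c2 (0.26 ± 0.42) and Hist1h4a (1.00 ± 0.46), with adjusted p from 0.809 to 0.931. Groups did not overlap for 1 tested gene, Hist3h2a, lower with the Pdx1 gRNA, against 3.17% of all tested genes, and for 0 that were higher, against 3.48%. They also did not overlap for the untested Hist3h2ba, with 24 counts after control gRNA and 4 after Pdx1 gRNA, and Hist1h2bp, with 15 and 0, so 2 of the 32 low genes were lower in this sense, against 2.92% of all genes that missed the filter.

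How far the counted exons reached past the stem-loop was compared with level and response. Of the 24 genes with fewer than 100 such bases, 7 were tested. Of these, 4 rose after control gRNA and 3 after Pdx1 gRNA (16.3% and 11.7% of all tested genes rose). All of the 7 but Hist1h4h entered the test with the help of virus libraries. Among all tested genes that entered in this way, 24.1% and 14.1% rose. The 24 genes summed to 5.48 ± 1.88 CPM after PBS, 14.96 ± 3.67 after control gRNA and 16.8 ± 4.68 after Pdx1 gRNA (SD, n = 4). Of the 12 genes with 100 or more, 7 were tested, and 5 and 4 rose. Hist1h4j, Hist1h2be and Hist2h3c2 among these had entered with the help of virus libraries. Without Hist1h1c, the other 11 summed to 6.58 ± 0.866, 12.8 ± 0.679 and 13.5 ± 3.29 CPM. In these classes all virus libraries exceeded all PBS libraries. Of the 14 genes with no match, some of which may have a stem-loop past their annotated exons, 4 were tested. Of these 4, 1 rose after control gRNA and 2 after Pdx1 gRNA. Without Hist1h2bc, the other 13 summed to 4.20 ± 1.65, 5.77 ± 1.03 and 7.92 ± 2.28 CPM. Here both virus groups overlapped the PBS group, whose highest library had 6.58 CPM, against lowest libraries of 4.96 and 4.86. The limit of 100 was chosen after the positions were seen, in a gap between 63 and 169 bases, and no test was made between classes.

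**Figure D4:**
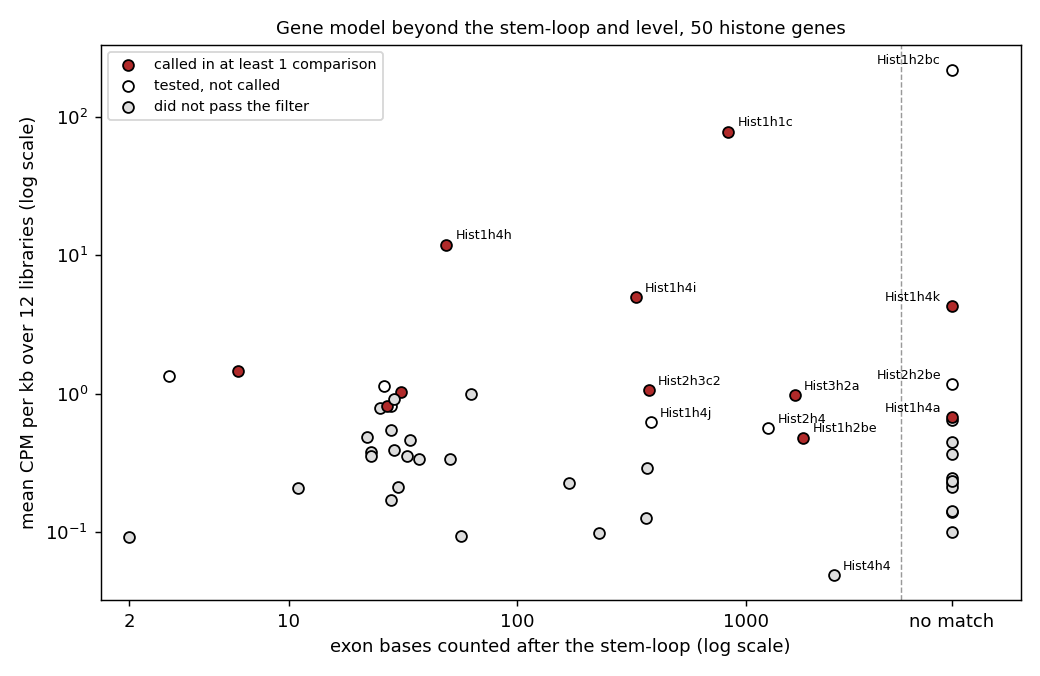
Mean CPM per kb over 12 libraries (y axis, log scale) against the exon bases counted after the stem-loop (x axis, log scale) for the 50 histone genes; genes with no stem-loop match stand at the right. Red points were called in at least 1 comparison, white were tested and not called, and grey did not pass the filter. Called genes occur at all distances, from 6 bases (Hist1h2ae) to 1789 (Hist1h2be).

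Copies of these genes are alike in sequence, and fragments that map to several places were not counted. A median of 57.5% of the 50-base windows of the 50 genes also occurred in a transcript of another gene on either strand, 93.1% in the 15 genes with fewer than 10 counts. By family the median was 4.27% for H1, 40.4% for H4, 47.3% for H2B, 66.2% for H3 and 67.6% for H2A. The share was 8.54% for Hist1h1c, 16.6% for Hist1h2be and 40.4% for Hist1h4a, the 3 genes whose calls held in both comparisons in all alternatives that tested them. For Hist1h4m it was 89.8%. The 5 genes with all windows shared, Hist2h2aa1, Hist2h2aa2, Hist2h2bb, Hist2h3b and Hist2h3c1, had 0 counts. Values of single genes with a high share are uncertain for this reason.

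Short genes as a whole were higher after virus. Among tested genes that are not clustered histone genes, those under 500 bases had a median log2 difference of 0.51 between control gRNA and PBS, with 26% called higher, and those of 4000 bases or more had -0.14, with 10.9% called higher. The 6 tested histone genes under 500 bases had a median of 1.33. For Pdx1 gRNA against PBS the medians were 0.34 for other genes and 1.59 for histone genes under 500 bases. With the trend on length removed in each library, 4 histone genes (Hist1h1c, Hist3h2a, Hist1h2be and Hist1h4a) rose after control gRNA and 5 (Hist1h1c, Hist1h1e, Hist1h2be, Hist2h3c2 and Hist1h4a) after Pdx1 gRNA. The median of the 18 was then 0.92 after control gRNA and 1.22 after Pdx1 gRNA, with 15 of 18 above 0 in each. Over all 15219 tested genes, 2093 rose in that setting after control gRNA and 1565 after Pdx1 gRNA, from 2488 and 1787 without the removal.

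Without PBS libraries 2 and 3, which had the Y-linked RNA, only 2 PBS libraries remain. In that setting the same 5 genes rose in both comparisons: Hist1h1c (2.90 and 3.32 on the log2 scale), Hist1h1e (2.71 and 3.16), Hist1h2be, Hist1h4i and Hist1h4a. The median over the histone genes tested there, 21 in number, was 1.30 after control gRNA and 1.53 after Pdx1 gRNA. Over all 16170 genes tested there, 1118 rose after control gRNA and 728 after Pdx1 gRNA, against 2488 and 1787 of 15219 with all libraries. PBS libraries 2 and 3 had more Hist1h1c than PBS libraries 1 and 4.

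The Hist1 genes lie in 2 blocks. In chr13:21716422-22043676, 5 of 15 histone genes were tested, and 2 rose after control gRNA and 2 after Pdx1 gRNA. In chr13:23531050-23764358, 9 of 28 were tested, and 6 rose in each. Of all tested genes, 16.3% rose after control gRNA and 11.7% after Pdx1 gRNA. Only Hist1h4i in the first block and Hist1h1c, Hist1h2bc and Hist1h4h in the second reached the filter's level in all 4 PBS libraries. The blocks' other tested histone genes entered with the help of virus libraries. Of the 37 other annotated genes inside the blocks, only Zfp184, encoding a zinc finger protein, and Hfe, the hemochromatosis gene, were tested, and neither was called. Zfp184 differed by 1.47 between control gRNA and PBS, and Hfe by 0.19.

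Other lists are read against the shares of all tested genes, of which 16.3% rose and 15.8% fell after control gRNA, and 11.7% rose and 10.4% fell after Pdx1 gRNA. No test compared the lists with each other or with other genes. Most variant histones can also be made outside S phase, from polyadenylated RNAs. The part of the cell cycle in their levels was not tested. Of 11 tested variant histone genes, 6 rose after control gRNA and 5 after Pdx1 gRNA, and none fell. H2afx, whose protein is phosphorylated at DNA breaks, went from 13.9 ± 2.47 CPM (SD, n = 4) after PBS to 26.4 ± 1.18 and 23.9 ± 0.985, and H2afj from 56.7 ± 12.8 to 113 ± 17.3 and 104 ± 12.9. H3f3b, which encodes H3.3, rose by 0.73 ± 0.15 (adjusted p = 0.00333, edgeR) and 0.50 ± 0.15 (adjusted p = 0.028). The linker variant H1f0, known from cells that have stopped dividing, was at 146 ± 25.0, 110 ± 18.0 and 121 ± 20.5 CPM and was not called (adjusted p = 0.0877 and 0.285).

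Of 22 tested genes for histone RNA 3-prime processing and the histone locus body, 5 rose and 1 fell (Cstf2t) after control gRNA, and 4 rose and Cstf2t fell after Pdx1 gRNA, with the shares that rose near those of all tested genes. Those that rose were general spliceosome proteins that the histone U7 particle shares (Snrpb, Snrpe and Snrpf in both, Snrpg after control gRNA) and Cdk9, a transcription elongation kinase. Snrpf rose by 1.30 ± 0.22 (adjusted p = 0.00132, edgeR). Slbp, the stem-loop binding protein, differed by 0.35 ± 0.17 (adjusted p = 0.122) and 0.36 ± 0.17 (adjusted p = 0.136), and Npat, which drives histone gene transcription, by 0.21 ± 0.18 and 0.29 ± 0.18. Neither was called, and both are named for their role and not by the naming rule. Of 16 genes for general cleavage and polyadenylation, Pabpc1 rose and Pcf11 fell after control gRNA, and none was called after Pdx1 gRNA. Papolg, a poly(A) polymerase, differed by -0.56 ± 0.22 after control gRNA and was not called (adjusted p = 0.0671).

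Of 22 tested histone chaperones, 11 rose and 4 fell after control gRNA (16.3% and 15.8% of all tested genes), and 10 rose and 4 fell after Pdx1 gRNA (11.7% and 10.4%). Asf1b, the chaperone of proliferating cells, rose by 1.91 ± 0.40 (adjusted p = 0.00427, edgeR) and 2.03 ± 0.41 (adjusted p = 0.00502), and Chaf1a, a subunit of the replication-coupled assembly factor, by 1.401 and 1.92. Npm1 rose and Rbbp4 fell in both comparisons.

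Of 34 tested S phase genes, 21 rose in each comparison, against 16.3% and 11.7% of all tested genes, and 1, Mcm10, fell after control gRNA. Cdc6, which loads the replicative helicase, went from 0.305 ± 0.0929 CPM after PBS to 2.44 ± 0.227 and 4.76 ± 1.81 (SD, n = 4). Of 20 mitosis genes, 18 and 16 rose, for example Cdk1, from 1.87 ± 1.29 CPM to 12.3 ± 3.36 and 9.13 ± 1.65. Per library, the S phase sum was highest in Pdx1 gRNA library 1 (657 CPM). The mitosis sum was highest in control gRNA library 1 (279 CPM). Hist1h1c was highest in Pdx1 gRNA library 4 (333 CPM), where the S phase sum was 409 CPM, the lowest of the virus libraries. Its next highest level (202 CPM) was in control gRNA library 1, the library with the highest mitosis sum. The 48 histone genes other than Hist1h1c and Hist1h2bc summed highest in Pdx1 gRNA library 3 (49.9 CPM). There the S phase sum was 534 CPM and the mitosis sum 137 CPM. None of these genes was called between the virus groups. The part of cell division in the histone levels was not tested.

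Between the virus groups no companion gene was called, with adjusted p of 0.809 or more by edgeR for the genes named here. The smallest p-values were those of H3f3b (-0.23 ± 0.15), H2afy2 (-0.45 ± 0.32) and H1fx (-0.66 ± 0.57) among variant histones, as log2 differences of Pdx1 gRNA from control gRNA. Among processing genes they were those of Snrpg (-0.39 ± 0.17), Lsm10 (0.27 ± 0.15) and Snrpe (-0.20 ± 0.13). Among chaperones they were those of Rbbp4 (0.30 ± 0.15), Chaf1a (0.52 ± 0.28) and Supt16 (0.37 ± 0.21). The S phase genes were Cdc6 (0.97 ± 0.28), Cdt1 (0.50 ± 0.26) and Uhrf1 (0.73 ± 0.39), and the mitosis genes Bub1 (-0.77 ± 0.40), Nusap1 (-0.76 ± 0.43) and Aurkb (-0.55 ± 0.45). Papolg (0.33 ± 0.22), Fip1l1 (0.18 ± 0.12) and Wdr33 (0.18 ± 0.13) led the polyadenylation list.

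Markers of liver and other cells were counted in the same way, against 16.3% of all tested genes that rose and 15.8% that fell after control gRNA, and 11.7% and 10.4% after Pdx1 gRNA. After control gRNA, 6 of 8 hepatocyte markers and 3 of 5 tested erythroid markers fell, 2 of 5 endothelial markers fell, and 2 of 10 T and NK cell, 3 of 8 macrophage and monocyte and 2 of 4 tested cholangiocyte markers rose. No neutrophil, B cell or stellate cell marker was called. After Pdx1 gRNA, 1 hepatocyte, 1 erythroid and 3 endothelial markers fell and none of any list rose. The summed hepatocyte markers were from 82350 to 122879 CPM in the PBS group, from 51548 to 70086 in the control gRNA group and from 50225 to 103821 in the Pdx1 gRNA group. The T and NK cell sum was 6.46 to 11.9, 13.1 to 22.1 and 3.85 to 13.8 CPM, in the same order of groups. The part of other cell types in the histone values was not tested.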

How the data were processed

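The authors deposited fragment counts per gene, 1 file for each of 12 libraries. Per the file headers they were made with featureCounts 1.4.6-p4 on paired ends, without regard to strand, on GENCODE M13 exons, and the headers show no option to count multi-mapping or multi-overlapping fragments. Per the submitters' processing notes, the tools also included Trimmomatic 0.32, STAR 2.4.1a, R 3.5.1 and DESeq2 1.22.0. These notes name GRCm38 and mm10 as builds. Symbols came from a later GENCODE release by gene ID.

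Genes were filtered with filterByExpr (minimum count 10), scaled by TMM and fitted together over 12 libraries with edgeR 4.0.16 (quasi-likelihood, robust, two-sided). Calls were made under an adjusted p of 0.05 (Benjamini-Hochberg, 15219 genes). Fold changes are log2 ± SE, and CPM are mean ± SD on TMM-scaled sizes, Xist and Ddx3y on total counts. The method was tested on simulated data. Named genes were those called in any comparison, the 10 highest per kilobase, the smallest p per family and comparison, and up to 3 genes per companion list. The genes and lists described here were chosen with earlier results of these data known. Alternatives were other scalings, filters, tools (DESeq2 1.42.0, limma 3.58.1) and sets of libraries, removal of the trend on length, and the replicate number as a block.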

Additional observations from a re-analysis of the deposited data

Results flagged for a closer look

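In 53 combinations of a tested histone gene and a group of 4 libraries, a library was singled out when its gap to the nearest other library took a share of the group's range above Dixon's 95% critical value. Chance does this in about 1 in 20 groups, and 5 were found. Hist1h1c was 202 CPM in control gRNA library 1, against 118 to 128 in the other 3, and 333 CPM in Pdx1 gRNA library 4, against 135 to 150. Both lay on the far side from PBS. Hist1h4i was 2.84 CPM in control gRNA library 1, against 4.34 to 4.59, the side nearer to PBS. Hist1h4m was 0.998 CPM in control gRNA library 4, against 0.410 to 0.455. Hist3h2a was 1.25 CPM in Pdx1 gRNA library 2, against 2.33 to 2.54, and this library alone of the Pdx1 gRNA group lay within the PBS range.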

How the results depend on the processing

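The number of histone genes that rose depended on the filter and on single libraries, and none fell in any setting. From 10 after control gRNA and 9 after Pdx1 gRNA, of 18 tested, it became 16 and 19 of 50 with the low genes added back. It was 14 of 50 after Pdx1 gRNA with no filter and 6 of 9 after control gRNA with a stricter filter. With only the 8 libraries compared it was 6 of 13 and 5 of 12. It was 4 and 5 of 18 with the trend on gene length removed, and 5 and 5 of 21 without PBS libraries 2 and 3. Over all tested genes, 2488 and 1787 of 15219 rose in the main fit. In the same order of settings, these became 2491 and 1798 of 15251, 1483 of 30338, and 2304 of 13979. They were then 1963 of 14778 and 1217 of 14216, 2093 and 1565 of 15219, and 1118 and 728 of 16170. Leaving out 1 library at a time gave between 5 and 8 histone genes for the control gRNA and between 5 and 11 for the Pdx1 gRNA. Over all tested genes, these fits gave between 1728 and 3576 for the control gRNA and between 1157 and 2744 for the Pdx1 gRNA. The lowest histone counts after control gRNA came without PBS library 3 (6), PBS library 4 (6), control gRNA library 3 (5) and control gRNA library 4 (5). After Pdx1 gRNA they came without PBS library 3 (5) and Pdx1 gRNA library 3 (5). With the replicate number as a block, 7 histone genes rose in each comparison, each of them also called without it. Of all tested genes, 2239 and 1451 rose with the block. The labels do not say that a number pairs libraries across groups. In deviations from the group mean, 3 of 12 same-numbered pairs correlated above 0.1, and 2 of 12 libraries correlated best with their own number. This cannot exclude a pairing, since the deviations of PBS libraries include their male and female patterns. For single genes, 314 of 364 alternative values kept direction and call after control gRNA, 47 lost the call and 3 gained it; after Pdx1 gRNA these were 322 of 363, 34 and 7. No called value changed sign, and values called in neither fit changed sign in 3 and 7 cases, and in 10 of 369 between the virus groups. With library sizes alone, the median of all genes moved to 0.34 after control gRNA and 0.22 after Pdx1 gRNA, and that of the 18 histone genes to 1.66 and 1.85. Depth limits 32 of the 50 genes, which had 114 counts or fewer in all. Where a call was lost, the cause was not tested, except that fewer libraries or genes entered some settings.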

Other observations

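Hist1h2al, one of the 3 pseudogenes left out above, had 672 counts in PBS library 1 and none in PBS libraries 2 to 4. Control gRNA libraries 1 to 4 had 205, 270, 156 and 180 counts, and Pdx1 gRNA libraries 1 to 4 had 175, 216, 1 and 0. Libraries of the same group thus ranged from no count to a plain signal, in 2 of the 3 groups.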
